A study of Astragalus chrysochlorus with 2 samples.

Results

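Enzymes of ethanol fermentation, glycolysis and the reaction that makes phosphoenolpyruvate were described in callus of Astragalus chrysochlorus, a selenium-accumulating legume grown here as undifferentiated tissue. The 5 enzymes are alcohol dehydrogenase (CL8721.Contig2_All), pyruvate decarboxylase (Unigene3018_All), a pyrophosphate-dependent phosphofructokinase (Unigene21546_All), phosphoglycerate mutase (Unigene1879_All) and phosphoenolpyruvate carboxykinase (CL7347.Contig3_All), named from here on without the common ending. They are 5 of 82566 unigenes, the assembled transcripts of the deposited table, and all 5 were found in it. The unigenes were picked by identifier because each was higher in Se-treated callus, so their differences between the libraries are a description and carry no test.

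Both libraries came from callus on MS medium with 0.5 mg/L of the synthetic auxin 2,4-D. For the Se-treated library, callus 21 days old spent 3 weeks on such medium containing sodium selenate at 5 mg/L, and the control library came from callus without selenate. Cultures were triplicated, but pooling of the triplicates is not given in the sources used here. There was 1 library per condition and no replicate check. The Se-treated library held 16.70 M mapped fragments and the control library 16.73 M (M, 1000000). In such bulk tissue, more cells that make a transcript and more of the transcript per cell cannot be told apart.

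Glycolysis breaks sugar down to pyruvate and yields a little ATP. When respiration cannot keep pace, as in flooded or tightly packed plant tissue, pyruvate decarboxylase turns pyruvate into acetaldehyde and alcohol dehydrogenase reduces it to ethanol, which gives back the NAD+ that glycolysis needs. Plants also have a phosphofructokinase that uses pyrophosphate in place of ATP, and phosphoenolpyruvate carboxykinase works in the other direction, making phosphoenolpyruvate from oxaloacetate.

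Levels are given as FPKM, fragments per kilobase of unigene and 1000000 mapped fragments, so that unigenes of different length can be compared. Differences are log2 ratios of Se-treated over control FPKM, where 1 is a 2-fold difference. The intervals given are exact at the 95% level for counting error alone, and variation between cultures is not in them. Fragments from amplified libraries are not independent molecules, so the intervals can be too narrow even for counting error. A call, higher or lower, needed a log2 ratio of 2 or more in either direction and a false discovery rate (FDR) no greater than 0.001 in the Audic-Claverie test with Benjamini-Hochberg adjustment, which compares the 2 libraries and not the conditions. All 5 enzymes were called higher, where 1.59% of all unigenes were, and 1.76% of the 27228 unigenes with at least 100 fragments over both libraries. Nothing was read from this count, because the enzymes were chosen on the same contrast.

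**Figure D1:**
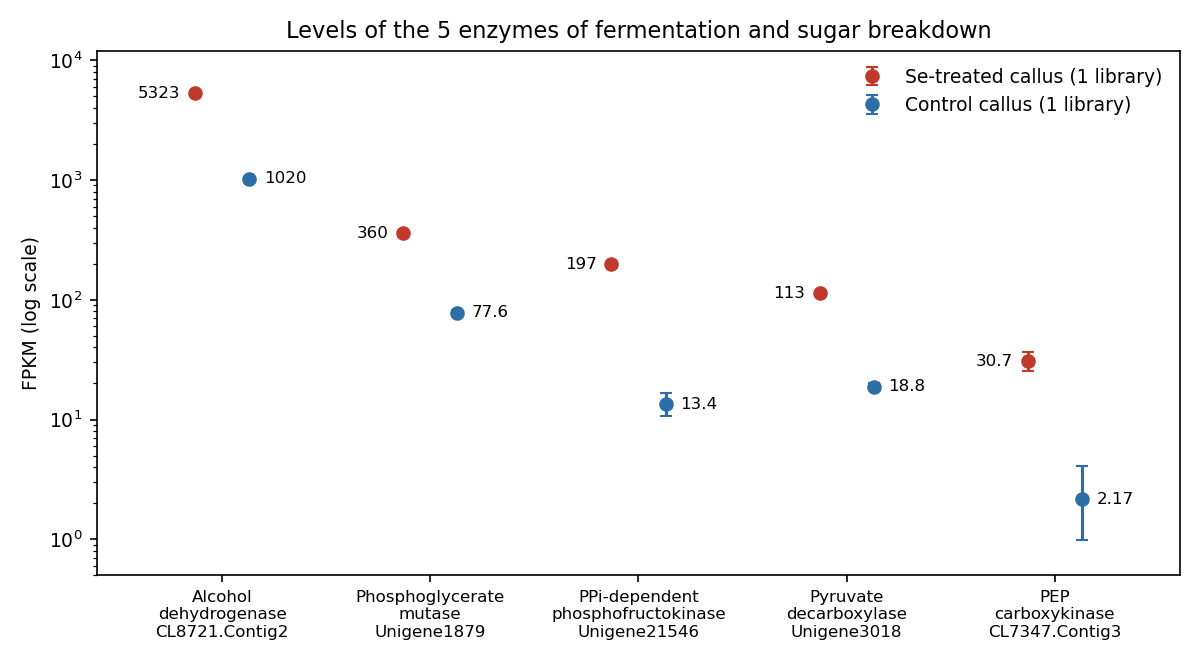
FPKM (log axis) of the 5 enzymes in the Se-treated (red, left) and the control library (blue, right), with exact 95% Poisson intervals for counting error, which are smaller than the points where no bar is seen. Each point is 1 library. Alcohol dehydrogenase stood highest in both, at 5323 FPKM in Se-treated and 1020 FPKM in control callus, and the intervals of the 2 libraries were apart for every enzyme.

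Alcohol dehydrogenase was by far the most abundant of the enzymes. It had 142064 fragments in the Se-treated library and 27277 in the control, or 5323 FPKM against 1020 FPKM. This made it rank 4 among all unigenes by FPKM in Se-treated callus, against rank 42 in control callus. By fragments, without scaling for length, it ranked 1 in the Se-treated library and 23 in the control. Its share of all mapped fragments was 0.851% (exact binomial interval 0.846 to 0.855%) in Se-treated callus and 0.163% (0.161 to 0.165%) in control callus. The log2 ratio was 2.38 (2.36 to 2.40), a 5.22-fold difference.

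The cluster of alcohol dehydrogenase, a group of similar contigs that may share fragments, held almost nothing else. Its other contig, CL8721.Contig1, is 236 nt long and had 8 fragments in the Se-treated and 1 in the control library, against a length of 1598 nt for CL8721.Contig2. The described contig took 99.994% of the cluster's fragments in Se-treated and 99.996% in control callus. The summed cluster therefore had the same log2 ratio, 2.38. Of the 9280 clusters of 2 or more contigs, 1.05% were called higher when summed.

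Pyruvate decarboxylase (Unigene3018), the enzyme that feeds acetaldehyde to alcohol dehydrogenase, had 4879 fragments in the Se-treated library and 814 in the control. Its level was 113 FPKM in Se-treated callus and 18.8 FPKM in control callus, a log2 ratio of 2.59 (2.48 to 2.69). It ranked 1212 by FPKM in Se-treated and 7773 in control callus. The FPKM of alcohol dehydrogenase was 47.1 times that of Unigene3018 in Se-treated callus and 54.2 times in control callus. Both unigenes were chosen for being higher in the Se-treated library, so nothing was read from this similar proportion.

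The name pyruvate decarboxylase is carried by 3 more unigenes among the 972 with a protein name, which come from a table of unigenes called in these libraries. Unigene3017 has the number next to Unigene3018 and is 2844 nt long, against 2586 nt for Unigene3018. Unigene3017 had 99.3 FPKM in Se-treated and 19.7 FPKM in control callus (log2 ratio 2.34, interval 2.23 to 2.44). The interval of Unigene3018 (2.48 to 2.69) lay above it. Whether they are copies of the gene or forms of 1 transcript is not given in the sources used here.

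The other pyruvate decarboxylases were lower in level. Unigene10561 (978 nt) had 827 fragments in the Se-treated and 80 in the control library, a log2 ratio of 3.37 (3.04 to 3.72). CL863.Contig2 (3079 nt) had 3410 in the Se-treated and 421 in the control library, and its log2 ratio was 3.02 (2.87 to 3.17). The 14 contigs of its cluster together had 6160 fragments in Se-treated and 1603 in control callus, a log2 ratio of 1.94 (1.87 to 2.02), and the 13 contigs other than Contig2 had 1.22 (1.12 to 1.32). Contig2 made up 55.4% of the cluster in Se-treated callus and 26.3% in control callus. Summed over the 4 named unigenes, pyruvate decarboxylase had 13832 fragments in Se-treated and 2251 in control callus. The log2 ratio of this sum was 2.62 (2.56 to 2.69), and with the whole CL863 cluster it had 2.27 (2.22 to 2.33).

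**Figure D2:**
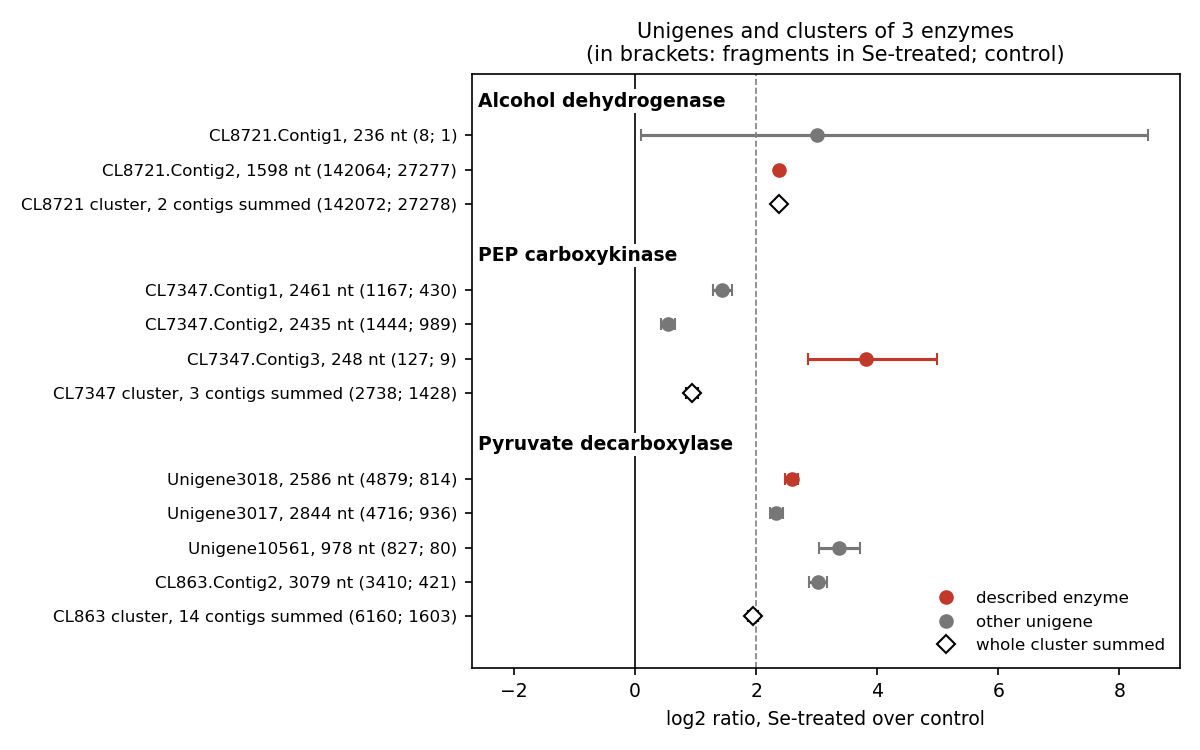
Log2 ratio of Se-treated over control for the unigenes of 3 enzymes (red, the described unigene, and grey, others) and for the fragments summed over each cluster (open diamonds), with exact 95% counting intervals. The dashed line marks a log2 ratio of 2. The summed cluster of alcohol dehydrogenase lay on its contig at 2.38, while that of phosphoenolpyruvate carboxykinase lay at 0.94, against 3.82 for CL7347.Contig3.

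The pyrophosphate-dependent phosphofructokinase (Unigene21546), matched to the alpha subunit of the soybean enzyme, had the largest ratio. It had 1208 fragments in the Se-treated library and 82 in the control, or 197 FPKM against 13.4 FPKM. The log2 ratio was 3.88 (3.56 to 4.22), a 14.8-fold difference with an interval of 11.8 to 18.7. It is 367 nt long, a piece of the transcript rather than the whole coding sequence. The ratio is that of this piece, since other unigenes of the enzyme without a call would carry no name here. In control callus Unigene21546 stood below Unigene3018, and in Se-treated callus it stood above it, with counting intervals that did not overlap in either library.

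The ATP-using 6-phosphofructokinase, which carries out the same step of glycolysis, was named for 1 listed unigene, which was called lower. Names were at hand only for called unigenes, so unigenes of this enzyme without a call cannot be seen here. Unigene33199 had 15 fragments in the Se-treated library and 72 in the control, a log2 ratio of -2.26 (-3.17 to -1.44). Its level, 1.34 FPKM in Se-treated and 6.44 FPKM in control callus, was under that of Unigene21546 in both libraries. Unigene33199 has a number from 30000 to under 37000, and of the 6970 unigenes in that range only 11.1% were higher in the Se-treated library. In the range under 30000, which holds Unigene3018, Unigene21546 and Unigene1879, 46.2% of 29954 were higher. The part of this numbering in the result was not tested.

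Phosphoglycerate mutase (Unigene1879), the cofactor-independent type that moves the phosphate group late in glycolysis, had 5663 fragments in the Se-treated library and 1225 in the control. It was the enzyme with the second highest level in both, 360 FPKM in Se-treated and 77.6 FPKM in control callus. Its log2 ratio of 2.21 (2.12 to 2.30) was the smallest of the 5 described unigenes. A phosphoglycerate mutase of the cofactor-dependent type (Unigene33460, numbered from 30000 to under 37000) had 6 fragments in the Se-treated and 31 in the control library, and its log2 ratio was -2.37 (-3.92 to -1.08). Summed, both had 2.18, since Unigene33460 adds few fragments.

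Phosphoenolpyruvate carboxykinase (CL7347.Contig3) rests on the fewest fragments, 127 in the Se-treated library and 9 in the control. It had 30.7 FPKM in Se-treated callus (25.6 to 36.5) and 2.17 FPKM in control callus (0.992 to 4.12), with a log2 ratio of 3.82 and a wide interval of 2.85 to 4.98. The contig is 248 nt long, and its cluster holds 2 long contigs that carried most of the fragments.

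Those long contigs differed less between the libraries. CL7347.Contig1 (2461 nt) had 1167 fragments in the Se-treated and 430 in the control library, a log2 ratio of 1.44 (1.28 to 1.61). CL7347.Contig2 (2435 nt) had 1444 in the Se-treated and 989 in the control library, which gave 0.55 (0.43 to 0.67). Summed over the cluster there were 2738 fragments in Se-treated and 1428 in control callus, which gives 0.94 (0.85 to 1.03), a 1.92-fold difference that does not meet the log2 ratio of 2. CL7347.Contig3 made up 4.64% of the cluster's fragments in Se-treated callus and 0.630% in control callus. Across the table, 417 contigs in clusters of 2 or more were called higher, and the cluster sum reached a log2 ratio of 2 for 26.1% of them and of 1 for 62.4%.

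The 5 described unigenes were also set against each other. By FPKM the order in Se-treated callus was alcohol dehydrogenase, phosphoglycerate mutase, phosphofructokinase, pyruvate decarboxylase and phosphoenolpyruvate carboxykinase, and no neighbours in this order had overlapping counting intervals. In control callus the order was the same except that pyruvate decarboxylase stood above phosphofructokinase. The last place of phosphoenolpyruvate carboxykinase in control callus depends on the contig. There the short CL7347.Contig3 (2.17 FPKM) and the long CL7347.Contig1 (10.4 FPKM) both stood below Unigene21546. CL7347.Contig2 had 35.5 FPKM in Se-treated and 24.3 FPKM in control callus, which in control callus is above Unigene3018 and Unigene21546. By log2 ratio, the intervals of phosphoglycerate mutase, alcohol dehydrogenase and pyruvate decarboxylase did not overlap. Those of phosphofructokinase (Unigene21546) and phosphoenolpyruvate carboxykinase (CL7347.Contig3) overlapped each other and lay above the other 3. The place of phosphoenolpyruvate carboxykinase by ratio also depends on the contig. Its summed cluster CL7347 had 0.94 (0.85 to 1.03), which lies below the other 3. Together the 5 described unigenes took 0.922% of the fragments in Se-treated callus and 0.176% in control callus. Without alcohol dehydrogenase they took 0.0711% in Se-treated and 0.0127% in control callus. The other 4 described unigenes summed had a log2 ratio of 2.48 (2.42 to 2.55). These shares and this sum leave out the long contigs of CL7347. They also leave out the further unigenes named pyruvate decarboxylase or phosphoglycerate mutase.

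Few unigenes were both as abundant and as different between the libraries, which is a description, since the choice of the enzymes used the ratio. Of the 6 unigenes with a mean log2 FPKM at least that of alcohol dehydrogenase, 0 had a ratio as large. For Unigene21546 it was 0 of 2883. For Unigene3018 it was 1 of 3194, namely Unigene21546. For Unigene1879 it was 3 of 745, which were alcohol dehydrogenase, a small heat shock protein of class II (CL808.Contig1) and a universal stress protein A-like protein (Unigene23149). For CL7347.Contig3 it was 2 of 14979, which were Unigene21546 and a further contig (CL9421.Contig1). This holds for CL7347.Contig3 alone, with 9 fragments in the control library, since its summed cluster had a log2 ratio of 0.94. By log2 ratio alone, whatever the abundance, the 5 ranked from 1195 (Unigene21546) to 3261 (Unigene1879) among the 82566 unigenes.

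**Figure D3:**
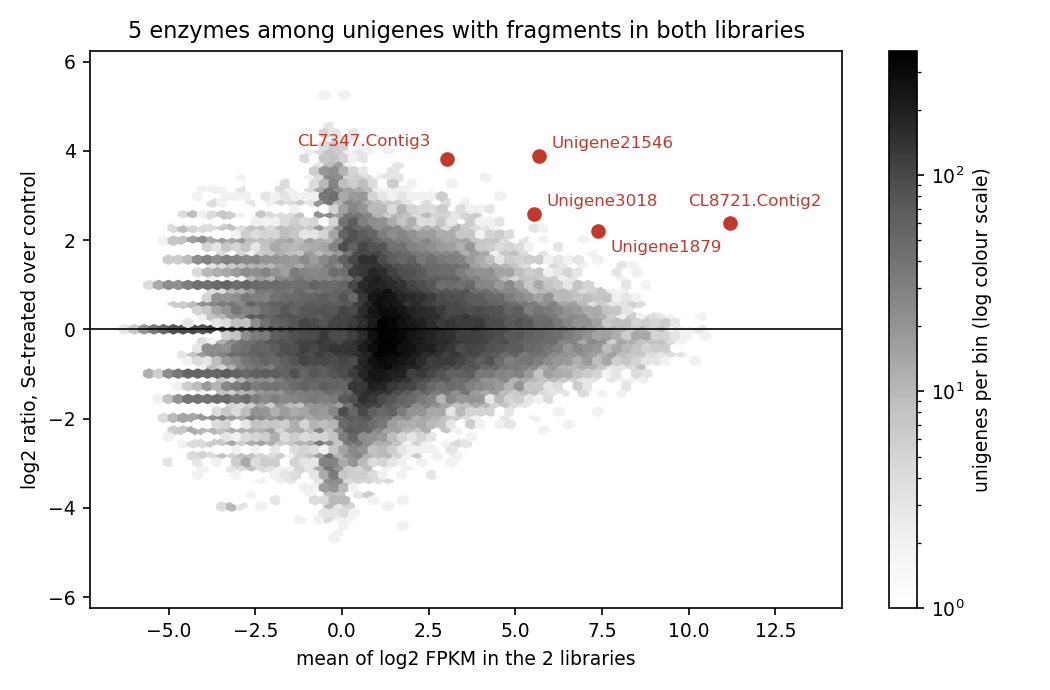
Log2 ratio of Se-treated over control against the mean of log2 FPKM in the 2 libraries, for the 80074 unigenes with fragments in both (grey bins, darker for more unigenes on a log colour scale) and the 5 enzymes (red). The enzymes lie on the upper right edge of the cloud, from a log2 ratio of 2.21 for Unigene1879 to 3.88 for Unigene21546. CL7347.Contig3 is drawn as a single contig, and its summed cluster had 0.94.

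The named unigenes whose levels in the 2 libraries lay nearest were also found, by Euclidean distance in log2 FPKM over these 2 points and 923 named unigenes with fragments in both. The nearest to Unigene3018 were Unigene3017 at a distance of 0.20 and a succinate dehydrogenase flavoprotein subunit of the citric acid cycle (Unigene8501) at 0.22. Next came an embryonic abundant protein (Unigene8120) at 0.28. Unigene1879 lay 0.10 from CL808.Contig1, with Unigene23149 and an ABC transporter of the B family (CL1768.Contig2) farther off. The nearest to Unigene21546 were Unigene3018 at 0.94, a nodule-enhanced sucrose synthase (CL1452.Contig3) at 0.96 and Unigene3017 at 1.14. CL7347.Contig3 lay 0.26 from an asparagine synthetase (Unigene38116), and 2 hypothetical proteins (CL4443.Contig2 and Unigene7183) followed. Alcohol dehydrogenase had no close neighbour among these named unigenes. All of them were called in these libraries, so abundant unigenes without a call could not be found as neighbours. The nearest named unigene, MtN12 (Unigene26166), was 3.95 away and differed in the other direction, and an aspartate aminotransferase (Unigene6935) and CL1768.Contig2 were farther.

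A wider list of 43 named unigenes of sugar breakdown, fermentation and respiration, which includes the 5 enzymes, was taken by enzyme name from the same table. That table holds only unigenes called in these libraries, so the counts describe the list and are no evidence of a direction. Of the 43, the Se-treated library was called higher for 36 and lower for 7, where 68.2% of all 972 named unigenes of that table were called higher and 31.8% lower. The share of all unigenes (1.59% higher and 1.10% lower) is no base for the list, since it was drawn from called unigenes alone. Their median log2 ratio was 2.34, that of all 972 named unigenes 2.18 and that of all unigenes -0.09. With 1 FPKM added to both libraries 19 of the 43 were called higher and 1 lower. Without the 5 enzymes, 31 of 38 were called higher and 7 lower, with a median of 2.31. The 5 were picked for being higher, so counts by role that hold any of them were partly set by that choice.

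In fermentation all 6 listed unigenes were called higher, with a median log2 ratio of 2.48, against 68.2% higher and a median of 2.18 over the 972 named unigenes. Besides alcohol dehydrogenase and the 4 pyruvate decarboxylases they include an L-lactate dehydrogenase (Unigene11926), which makes lactate from pyruvate. It had 1552 fragments in the Se-treated and 354 in the control library, or 58.7 FPKM against 13.4 FPKM, a log2 ratio of 2.13 (1.97 to 2.31). Its level was under that of Unigene3018 in both libraries. CL8721.Contig2 and Unigene3018 were picked for being higher, so nothing was read from the count of 6.

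Of 9 listed glycolysis unigenes 7 were called higher and 2 lower, beside 68.2% higher of the 972 named unigenes, the 2 lower ones being Unigene33199 and Unigene33460. Pyruvate kinase, which makes pyruvate and ATP in the last step, was named for 3 contigs. CL1527.Contig3 had 1348 fragments in Se-treated and 122 in control callus (log2 ratio 3.47), and CL1527.Contig4 had 431 in Se-treated and 53 in control callus (3.03). The most abundant contig of that cluster, CL1527.Contig2, had 4940 in Se-treated and 4302 in control callus, with a log2 ratio of 0.20 (0.14 to 0.26), and the cluster had 0.59 (0.54 to 0.65). In the other cluster CL3714.Contig3 had a log2 ratio of 2.73 and its 5 contigs together 1.39 (1.34 to 1.44). A glucose-6-phosphate isomerase (CL2023.Contig2) had 49 fragments in Se-treated and 10 in control callus (log2 ratio 2.30, interval 1.30 to 3.44). Its cluster of 8 contigs had 425 in Se-treated and 418 in control callus (0.03, -0.17 to 0.22). Fructokinase-2 (CL585.Contig2) had 29 fragments in Se-treated and 6 in control callus, with a log2 ratio of 2.28 alone and 2.22 over its cluster.

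Of the 9 listed unigenes of sucrose cleavage, the step that brings sugar into glycolysis, 5 were called higher and 4 lower, where 68.2% of the 972 named unigenes were called higher. Both kinds of enzyme that split sucrose had unigenes in each direction. Sucrose synthase, which splits sucrose and saves part of the energy of the bond, was higher in CL1452.Contig3 (104 FPKM in Se-treated and 11.2 FPKM in control callus, log2 ratio 3.21), CL1452.Contig1 (3.45) and Unigene32875 (2.34). The CL1452 cluster had 19530 fragments in Se-treated and 6252 in control callus (log2 ratio 1.65, interval 1.60 to 1.69), most of them in CL1452.Contig2, which had 1.34. A short sucrose synthase (Unigene33281) was lower, with 6 fragments in Se-treated and 29 in control callus. Of the enzymes that split sucrose by hydrolysis, both contigs of an alkaline/neutral invertase were higher (CL6444, 103 fragments summed in Se-treated and 20 in control callus, log2 ratio 2.37), at levels under 2 FPKM in both libraries. An acid beta-fructofuranosidase (Unigene31405) was lower, with 10 fragments in Se-treated and 146 in control callus (log2 ratio -3.87, interval -4.96 to -2.95). A cell wall invertase (Unigene33574) was lower too, with 6 in Se-treated and 29 in control callus. An insoluble beta-fructofuranosidase (CL6788.Contig1) had 0 fragments in Se-treated and 16 in control callus, or 5.32-fold lower with 3 fragments in place of 0. The interval of its log2 ratio reached up to -1.94, and its cluster of 3 contigs had -1.48.

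Of the 7 unigenes called lower, 5 have numbers from 30000 to under 37000, the range in which most unigenes were lower, and the others are CL6788.Contig1 and an external NADH dehydrogenase (CL5581.Contig2). Of the 36 called higher, 2 are numbered 38000 and over, where 89.7% of 7446 unigenes were higher. The part of the numbering in these counts was not tested.

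**Figure D4:**
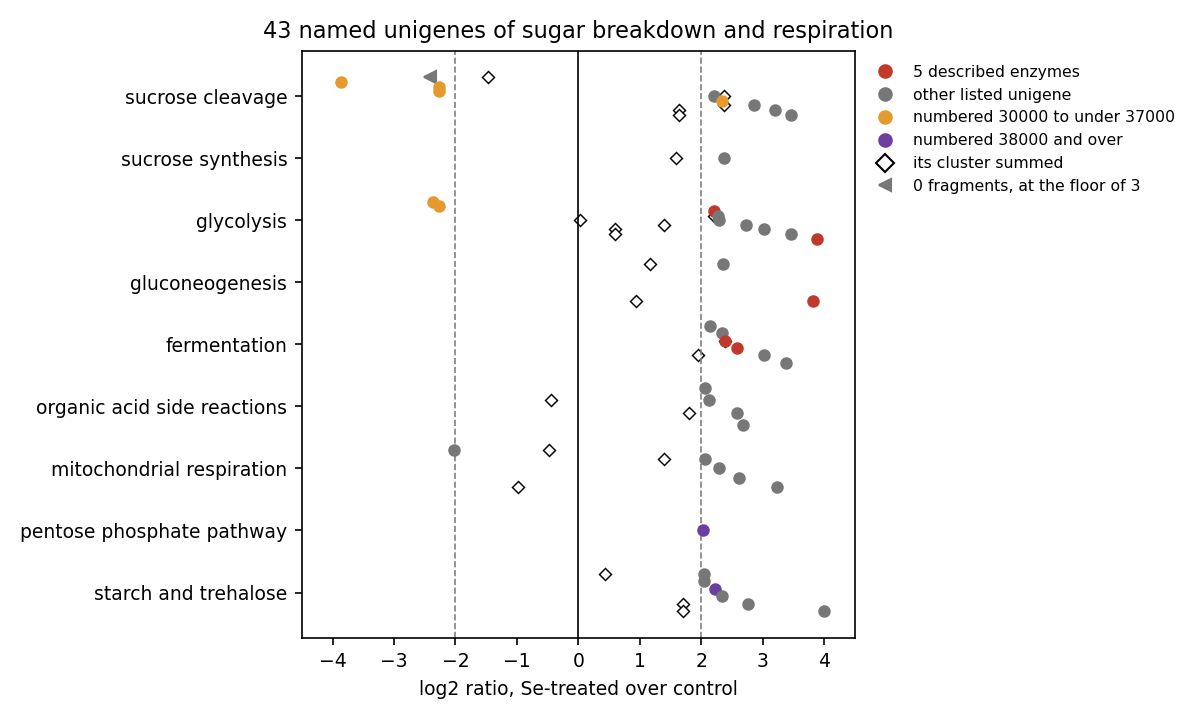
Log2 ratio of Se-treated over control for 43 named unigenes by role (filled points), with the sum over its cluster (open diamonds) where a unigene lies in a cluster of 2 or more contigs. Dashed lines mark log2 ratios of 2 in either direction, and the triangle is a unigene with 0 fragments in Se-treated callus, drawn at 3 fragments. Among the 17 clusters with a contig called higher, 3 lay at a summed log2 ratio of 2 or more and 11 at 1 or more.

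Clusters were often less different than their named contig. Of 17 clusters with a contig called higher, the sum had a log2 ratio of at least 2 in 3 (alcohol dehydrogenase, alkaline/neutral invertase and fructokinase), of at least 1 in 11, from 0 to 1 in 4 and below 0 in 2. Phosphoenolpyruvate carboxykinase is among the 4. Unigene3018, Unigene21546 and Unigene1879 lie in no cluster, so they have no cluster sum.

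Near the threshold, the listed unigenes just inside were a glucose-6-phosphate dehydrogenase (Unigene40365, log2 ratio 2.02), a phosphoglucan, water dikinase (CL283.Contig1, 2.04) and a beta-amylase (Unigene4307, 2.05). Just outside lay CL863.Contig12 with 2.00, whose 16 fragments in Se-treated and 4 in control callus did not pass the FDR, and CL3714.Contig5 with 1.81.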

How the data were processed

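After removal of low-quality reads, the authors built unigenes with Trinity (release 20130225), TGICL (2.1) and Phrap (23.0) and aligned the reads to them with SOAP. The deposited fragment counts are whole and not normalized. The deposited FPKM lack the decimal mark from 1 upward: all 58553 such values of the Se-treated and 59159 of the control library are 10000 times what the counts give, within 0.6. FPKM was therefore computed again. The deposited P-values and FDR were not used. Names came from the study's supplementary table of called unigenes, without its values.

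An FPKM of 0 was replaced by 0.001 in ratios. The Audic-Claverie test (the form that leaves the observed count out of the upper tail) with Benjamini-Hochberg adjustment over 82566 unigenes gave the calls. Simulated counts, drawn with counting error alone, were used to check the adjusted test and its intervals. The log2 ratio needed there was lower than that for the calls. No variation between cultures was simulated, so the check does not reach it. With 1 library per condition, precision is that of counting only. Alternatives were 0.1 or 1 FPKM added, other scalings (edgeR 4.0.16 TMM factors among them), an exact binomial test, a minimum of 10 fragments, assumed coefficients of variation of 0.2 and 0.4, and summed clusters. Text names followed a rule: the 5 enzymes, contigs of their clusters, unigenes sharing their enzyme name, the listed enzymes by role, and the 3 nearest named unigenes of each. CL863.Contig12, CL3714.Contig5, CL1527.Contig2, CL1452.Contig2, CL9421.Contig1 and the unigenes as abundant and as different were named after their values were seen. The ranges of unigene numbers were set after the data were seen. Members and lists were chosen with earlier results of these data known. No markers of callus were checked, since the deposited table has no gene names. The work used scipy 1.17.1 and numpy 2.4.6 in Python 3.11.15.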

Additional observations from a re-analysis of the deposited data

How the results depend on the processing

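All 5 enzymes stayed called higher with 0.1 or 1 FPKM added, under the other scalings, with the exact binomial test, with a minimum of 10 fragments, with the observed count in both tails of the Audic-Claverie test (added after the data were seen) and when cultures were assumed to vary with a coefficient of 0.2. With 0.4 the number was 0: the log2 ratios of 2.38 (CL8721.Contig2), 2.59 (Unigene3018), 3.88 (Unigene21546), 2.21 (Unigene1879) and 3.82 (CL7347.Contig3) are the same there, and the assumed spread alone takes the calls away. With clusters summed CL7347.Contig3 had 0.94 and lost its call. The 4 pyruvate decarboxylases summed had 2.62, 2.54 with 1 FPKM added and 2.70 with TMM scaling. Of the 43 listed unigenes, 36 were called higher and 7 lower. These were 19 and 1 with 1 FPKM added, 22 and 1 with a coefficient of variation of 0.2, and 0 and 0 with 0.4. With clusters summed 19 were called higher. Without unigenes numbered 30000 or higher, an alternative chosen after seeing the data, 2 were called lower. Over all unigenes 1311 were called higher and 912 lower, 1624 and 761 with TMM scaling, 1403 and 873 when recentred on the median, 402 and 249 with 1 FPKM added, 371 and 172 with a coefficient of variation of 0.2, and 0 and 0 with 0.4. No paired analysis was possible because each condition has 1 library, and for that reason no replicate could be left out. For a unigene of median length 3 fragments equal 0.229 FPKM in the Se-treated and 0.228 FPKM in the control library.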

Other observations

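Unigenes of the reactions around pyruvate and phosphoenolpyruvate were also among those called higher in Se-treated callus. They were taken from the table of called unigenes, where 68.2% of the 972 named unigenes were called higher, so their direction is a description. Of the 5 listed unigenes of mitochondrial respiration 4 were called higher and 1 lower, an external NADH dehydrogenase (CL5581.Contig2, log2 ratio -2.02). The 2 unigenes named phosphoenolpyruvate carboxylase, which fixes bicarbonate onto phosphoenolpyruvate, were Unigene15196, with 210 fragments in Se-treated and 33 in control callus (log2 ratio 2.67, interval 2.14 to 3.25), and Unigene29535, with 67 in Se-treated and 16 in control callus (2.07, 1.27 to 2.96). An NADP-dependent malic enzyme (CL7591.Contig1), which makes pyruvate from malate, had 42 fragments in Se-treated and 7 in control callus (2.59, cluster 1.79). In the citric acid cycle, oxoglutarate dehydrogenase had 2.62 in Unigene22717 (37.3 FPKM in Se-treated and 6.08 FPKM in control callus) and 2.06 in CL6362.Contig2 (cluster 1.39), and the succinate dehydrogenase subunit (Unigene8501) had 104 FPKM in Se-treated and 21.3 FPKM in control callus, a log2 ratio of 2.28 (2.09 to 2.48). For an ATP-citrate synthase (CL4475.Contig1) the contig had 2.13 and its cluster -0.44. For an alternative oxidase of mitochondria (CL7203.Contig2) the contig had 28 fragments in Se-treated and 3 in control callus (3.22) while its cluster of 2 contigs had 71 in Se-treated and 141 in control callus (-0.99, -1.42 to -0.57), so that contig and cluster went in opposite directions.

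All 6 listed unigenes of starch and trehalose metabolism were called higher, with a median log2 ratio of 2.28, against 68.2% higher and a median of 2.18 over the 972 named unigenes they were taken from. A trehalose-phosphate synthase (Unigene6288), of a family that takes part in sugar signalling, had 477 fragments in Se-treated and 95 in control callus (2.33, 2.01 to 2.66). A further one (CL42, 3 contigs) had 111 in Se-treated and 34 in control callus over its cluster (1.71, 1.14 to 2.31). Its listed contig CL42.Contig1 rests on 16 fragments in Se-treated and 1 in control callus. A phosphoglucan, water dikinase (CL283.Contig1) had 2.04, while its cluster of 3 contigs had 0.43 (0.14 to 0.72). A trehalose-phosphate phosphatase (Unigene38519, numbered 38000 and over) had 177 in Se-treated and 38 in control callus (2.22). These unigenes were taken from the table of called unigenes, so their direction is a description.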
